A study of Mus musculus with 12 samples.

Results

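The Bcl2 family decides at the mitochondrion whether a cell lives, and 10 of its genes were followed here out of 49585 genes counted. They were taken by name, for their place in T cell survival, with earlier results of these data known: the pro-survival genes *Bcl2*, *Bcl2l1*, *Mcl1*, *Bcl2a1b* and *Bcl2a1d*, the effector *Bak1*, and the BH3-only genes *Bcl2l11*, *Bid*, *Bad* and *Bik*. Naive CD4 T cells were isolated from lymph nodes of female mice and activated for 20 h on plates coated with anti-CD3 (5 ug/ml) and anti-CD28 (1 ug/ml). Control cells came from *Rnmt* fl/fl mice without CD4cre and *Rnmt* cKO cells from *Rnmt* fl/fl mice with CD4cre, so that both carried the floxed *Rnmt* alleles and only the second the Cre transgene. Cells were treated with cycloheximide (0.1 mg/ml) for 1 min before lysis, and cytoplasmic RNA (total RNA) and ribosome protected fragments (RPFs) were sequenced from 3 samples of each genotype, 12 libraries in all. The ages of the mice were not given in the sources used here.

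Pro-survival proteins such as BCL2, BCL-XL (encoded by *Bcl2l1*), MCL1 and A1 (encoded by the *Bcl2a1* genes) hold the effectors BAK and BAX in check. BH3-only proteins, among them BIM (encoded by *Bcl2l11*), bind the pro-survival proteins or activate the effectors, which then permeabilise the outer mitochondrial membrane and release cytochrome c to the caspases. Naive T cells lean on BCL2 and MCL1, and activation through the T cell receptor and CD28 is known to induce BCL-XL, with BIM as the main antagonist in the death of T cells deprived of cytokine.

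RNMT is the methyltransferase that completes the mRNA cap, and its gene checked the labels. *Rnmt* (chr18:68300355-68324852, plus strand, GRCm38) had 95.5, 94.1 and 94.3 CPM (a gene's counts as a scaled share of all counts of the library) in the total RNA of the control libraries and 29.3, 32.4 and 30.4 CPM in those of the *Rnmt* cKO. In RPFs it had 104, 87.9 and 98.9 CPM in control and 10.5, 10.4 and 9.60 CPM in *Rnmt* cKO cells, so the genotypes stood apart in both kinds of library. It fell by 1.62 ± 0.06 (SE) in total RNA and by 3.24 ± 0.10 in RPFs on the log2 scale (edgeR adjusted p of 5.84e-06 and 4.81e-06). The targeted allele loses exon 3 in cells in which the *Cd4* promoter is active, from the double positive stage of the thymus on, and the mice were on a C57BL/6J background. Reads from the other exons are counted too, so the remaining level is no measure of undeleted alleles.

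CPM values were scaled between libraries with TMM, a trimmed mean over genes. It is relative, so a lower total amount of mRNA per cell, or fewer cells of one type, cannot be told apart from a change in all genes. Rises and falls are therefore relative to the rest of the library. Where a *Rnmt* cKO cell holds less mRNA in all, a small relative rise, such as those of *Bcl2*, *Bak1* and *Bcl2l11* below, can be a fall per cell. A larger relative rise, such as that of *Mcl1* or *Bax*, can be much smaller per cell or absent. The amount of mRNA per cell was not analysed here. The authors report less of it in activated *Rnmt* cKO cells than in controls, and state that rises in the sequencing data are therefore overestimated. Between 15079703 and 22629563 reads were counted on genes in the total RNA libraries and between 4123271 and 10661356 in the RPF libraries, of which *Rnmt* cKO replicate 3 was the shallowest. The labels number the replicates but do not say that they came from separate mice, and p-values therefore measure the spread between these samples.

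Markers of CD4 T cells were abundant in all 12 libraries, with *Cd28* at 996 to 1169 CPM in total RNA and *Cd5* at 740 to 1329 CPM in RPFs. The 9 markers summed to 3375 to 3597 CPM in control and 2712 to 3040 CPM in *Rnmt* cKO total RNA, with 1 higher and 4 lower, and to 6117 to 6873 and 4768 to 5383 CPM in RPFs, with 0 higher and 4 lower (1 higher at an unadjusted p under 0.05 and 1 by DESeq2). CD8 T cell markers summed to 21.4, 21.4 and 41.7 CPM in control and 26.4, 21.3 and 9.85 CPM in *Rnmt* cKO total RNA, and neither of the 2 passed the test, but without the filter on low counts both were lower in total RNA and 1 in RPFs. Myeloid markers were at or near 0, with at most 22 counts summed over 8 genes in any library and *S100a8* at 0 in RPFs. Of 5 NK cell markers only *Eomes* passed the filter on low counts, a transcription factor that activated T cells also express, and it was higher by 3.13 ± 0.26 in total RNA and 2.98 ± 0.31 in RPFs on the log2 scale. The others were near 0 but mostly higher in *Rnmt* cKO cells. *Ncr1* had 2, 2 and 0 counts in control and 7, 12 and 9 in *Rnmt* cKO total RNA, *Klrb1c* had 0, 0 and 1 against 5, 9 and 6, and *Klre1* had 3, 2 and 3 against 15, 6 and 10. *Klra8* was at 0 in RPFs. Without the filter, 4 of the 5 NK cell markers were higher in total RNA and 2 of 4 in RPFs, and the part of NK cells in the results was not tested. B cell markers moved with genotype in part of the libraries. In total RNA the 6 B cell markers summed to 297, 290 and 306 CPM in control cells and to 328, 299 and 206 CPM in *Rnmt* cKO cells, with *Ighm* the most abundant. Of the 5 that were tested there, *Ms4a1* and *Cd79b* were higher and *Ighm* lower. In RPFs they summed to 125, 117 and 180 CPM in control cells and to 284, 320 and 88.3 CPM in *Rnmt* cKO cells. *Rnmt* cKO replicates 1 and 2 thus stood above the control libraries in RPFs, and *Rnmt* cKO replicate 3 below them. The values of the A1 genes, which B cells also express, are given below with and without replicates 1 and 2.

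The starts of the genes are shown first, because RNMT methylates the cap guanosine that is joined to the first transcribed base. RefSeq (GRCm38.p6) gave 13 start sites for 9 of the 10 genes. A TOP start, defined here as C followed by 4 bases that are each C or T, was present at 0 of the 13 and at 2.51% of the 32851 RefSeq starts. The first base was G at 6 of the 13, A at 3, C at 2 and T at 2, and of all RefSeq starts 35.6% had G, 34.4% A, 16.3% C and 13.7% T. The windows below run from 20 bases before the start site to 19 after it, in the direction of transcription, with the annotated first base in capitals. They belong to the 2 genes with the largest rises in total RNA among those that passed the test, *Bcl2l1* with its 3 starts and *Mcl1*, to *Bcl2*, and to *Bid*, which fell.
Bcl2l1 (chr2:152831709-152831748, minus strand): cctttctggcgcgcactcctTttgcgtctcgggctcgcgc
Bcl2l1 (chr2:152830698-152830737, minus strand): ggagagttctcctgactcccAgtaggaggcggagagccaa
Bcl2l1 (chr2:152828470-152828509, minus strand): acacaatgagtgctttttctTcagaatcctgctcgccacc
Mcl1 (chr3:95658701-95658740, plus strand): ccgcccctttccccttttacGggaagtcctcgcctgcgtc
Bcl2 (chr1:106714271-106714310, minus strand): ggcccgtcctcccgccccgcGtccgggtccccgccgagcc
Bid (chr6:120916805-120916844, minus strand): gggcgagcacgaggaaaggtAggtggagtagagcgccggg

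Of the 10 genes, all of which passed the filter, 5 were higher and 3 lower in the total RNA of *Rnmt* cKO cells, and 2 passed the test in neither direction. Over all 11519 genes tested, 26.3% were higher and 28.0% lower. In RPFs 5 of the 10 were higher and 0 lower, against 14.1% higher and 15.7% lower of 11428 genes. The 5 that rose in RPFs were the 5 pro-survival genes. The 3 lower in total RNA were the BH3-only genes *Bid*, *Bad* and *Bik*, of which *Bik* reached the filter through the control libraries. The BH3-only gene *Bcl2l11* and the effector *Bak1* were higher in total RNA, so no pattern by class is read from these calls. Neither the set of 5 nor the set of 3 is firm as a whole. Without control replicate 2, *Rnmt* cKO replicate 1 or *Rnmt* cKO replicate 2, 1 gene was lower in total RNA, and without both *Rnmt* cKO replicates 1 and 2 the genes higher in RPFs were 2, *Bcl2l1* and *Mcl1*. *Bcl2a1b* and *Bcl2a1d* are near-identical copies of one gene and share most of their sequence. The median log2 fold change of the 10 was 0.26 in total RNA and 0.24 in RPFs, beside -0.004 and 0.008 over all genes tested. Each was tested by quasi-likelihood in edgeR, with p-values adjusted by Benjamini-Hochberg over all genes tested and a threshold of 0.05. By the same test at an unadjusted p under 0.05, 1 of the 10 was lower in RPFs (*Bid*), and DESeq2 and edgeR's exact test each called 0.

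The groups did not overlap for 7 of the 10 genes in total RNA, 5 with *Rnmt* cKO above control and 2 below, and for 6 of the 10 in RPFs, 5 above and 1 below. Over all genes tested, 62.3% did not overlap in total RNA and 46.5% in RPFs. The plot of CPM by library shows each of these values.

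**Figure D1:**
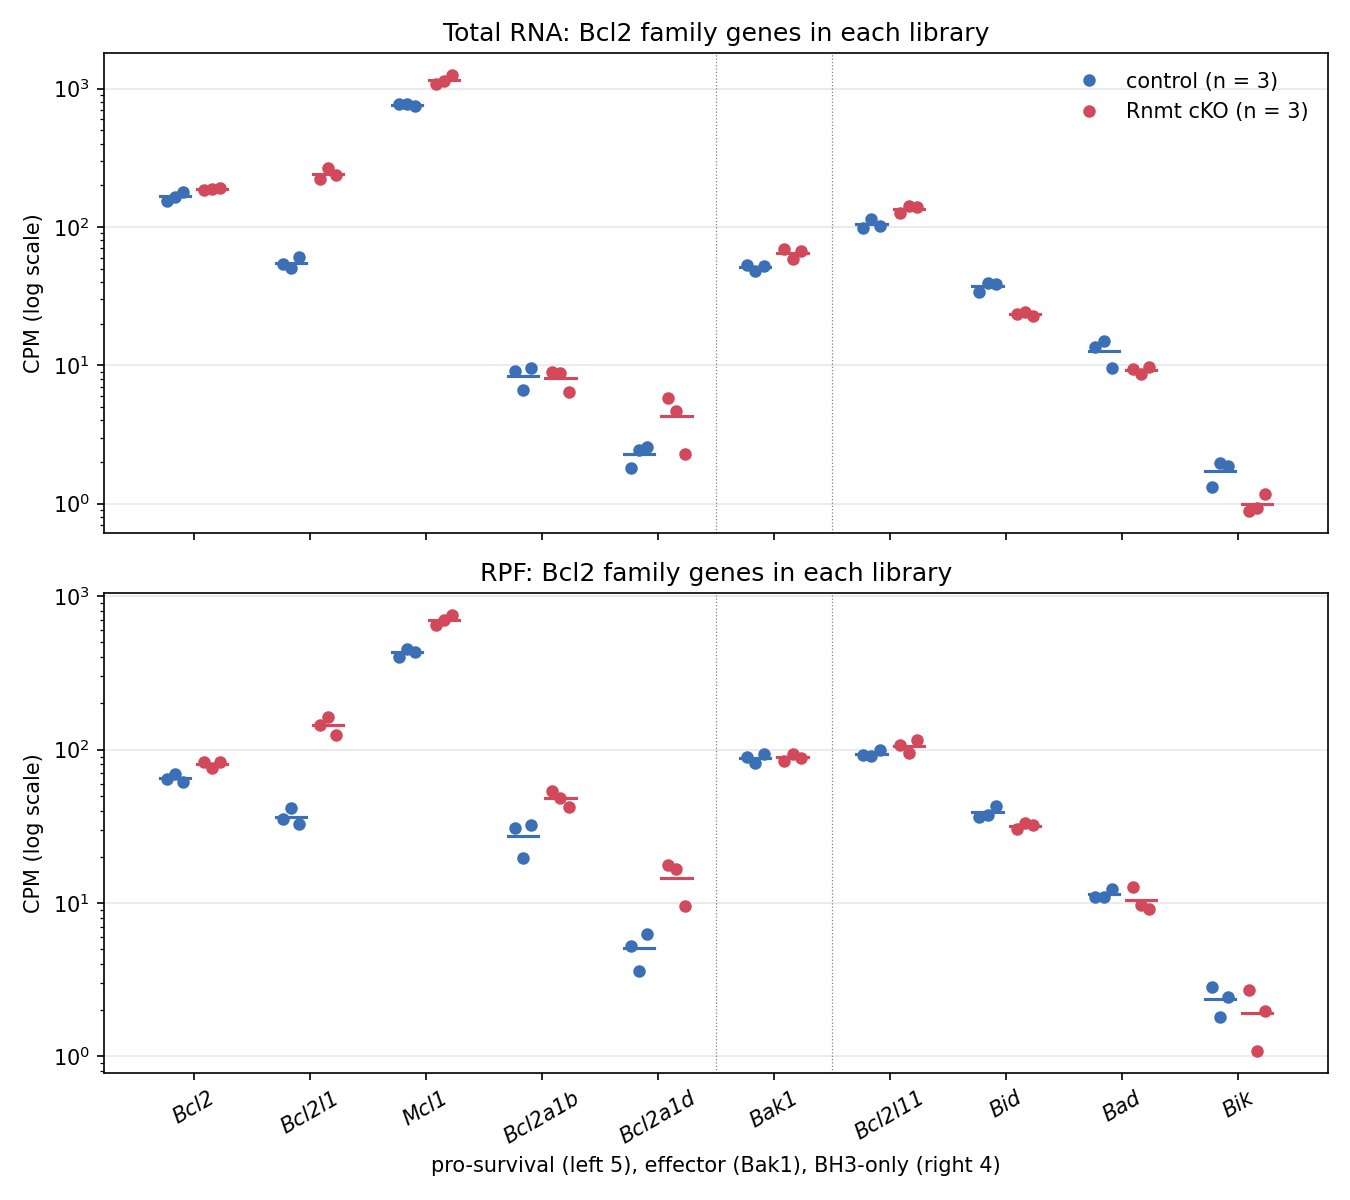
Levels of the 10 Bcl2 family genes in CPM (log axis) in total RNA (top) and RPFs (bottom), with a point for each library of control (blue) and Rnmt cKO cells (red) and a bar at the mean. Bcl2l1 stands apart between genotypes in both panels, at 50.6 to 60.3 CPM in control and 222 to 267 CPM in Rnmt cKO total RNA, whereas Bcl2a1b overlaps in total RNA and separates in RPFs.

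*Bcl2l1*, the gene of BCL-XL, changed most among the 10. It lies at chr2:152780668-152831728 on the minus strand (GENCODE vM21, GRCm38). In total RNA it had 53.9, 50.6 and 60.3 CPM in control cells and 222, 267 and 236 CPM in *Rnmt* cKO cells, 54.9 ± 4.96 and 241 ± 22.9 CPM (SD, n = 3). In RPFs it had 35.1, 41.8 and 32.6 CPM in control and 144, 162 and 124 CPM in *Rnmt* cKO cells. Every *Rnmt* cKO library was far above every control library in both kinds. The log2 fold change was 2.14 ± 0.09 (SE) in total RNA, a 4.40-fold difference, with an edgeR adjusted p of 6.05e-06. In RPFs it was 1.98 ± 0.12, a 3.95-fold difference, with an edgeR adjusted p of 5.31e-05. These calls held under each alternative that was run, with log2 values between 2.08 and 2.21 in total RNA and between 1.77 and 2.08 in RPFs.

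*Mcl1* encodes a short-lived pro-survival protein that T cells need at every stage. The gene lies at chr3:95658788-95663176 on the plus strand. It was the most abundant of the 10 genes and had 772, 776 and 754 CPM in control and 1086, 1135 and 1258 CPM in *Rnmt* cKO total RNA. Its RPFs were at 404, 456 and 431 CPM in control and 652, 704 and 752 CPM in *Rnmt* cKO cells, again with no overlap. It rose by 0.60 ± 0.07 on the log2 scale in total RNA (edgeR adjusted p = 0.000258) and 0.71 ± 0.08 in RPFs (edgeR adjusted p = 0.000487), 1.51- and 1.63-fold.

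*Bcl2* (chr1:106538178-106714274, minus strand) differed little. It had 155, 166 and 178 CPM in control total RNA and 185, 187 and 192 CPM in that of *Rnmt* cKO cells. The groups did not overlap, but the nearest libraries differed by less than the range of the control group. It rose by 0.18 ± 0.06 on the log2 scale (edgeR adjusted p = 0.0401). The RPFs of *Bcl2* were at 64.0, 69.0 and 61.5 CPM in control and 82.4, 75.3 and 83.2 CPM in *Rnmt* cKO cells, and rose by 0.31 ± 0.08 (edgeR adjusted p = 0.0190). Neither call is firm. The call in total RNA was lost without control replicate 1, control replicate 2, *Rnmt* cKO replicate 1 or *Rnmt* cKO replicate 3 (adjusted p of 0.0643 to 0.162), and that in RPFs without control replicate 1, control replicate 3 or *Rnmt* cKO replicate 1 (0.0606 to 0.0715).

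Promoters from 250 bases before to 49 after the start site were searched on both strands for an NF-kB motif (GGG, any 2 bases, then TTTCC) and the STAT5 motif TTCNNNGAA, since both factors are known to act on survival genes in T cells. The NF-kB motif was found at 2 of the 13 starts and in 1.63% of all RefSeq promoters. The STAT5 motif was found at 0 of 13 and in 8.30% of all. The NF-kB matches lay 1 upstream of a *Bcl2l1* start and 1 upstream of *Mcl1*, both on the opposite strand. The starts of *Bcl2a1b* and *Bcl2a1d* held 0. Whether NF-kB acted on any of these genes was not tested. Both matches are printed with the matched bases in capitals and are matches of letters, not measured sites.
Bcl2l1 (chr2:152830901-152830960, minus strand): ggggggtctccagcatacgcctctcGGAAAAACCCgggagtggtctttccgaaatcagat
Mcl1 (chr3:95658668-95658727, plus strand): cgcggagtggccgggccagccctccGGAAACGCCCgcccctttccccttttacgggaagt

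The balance between the 3 widely studied pro-survival mRNAs shifted toward *Bcl2l1*. Counts were divided by exon length in total RNA and by coding length in RPFs, so that levels could be set side by side within a library. Of the summed level per length of *Mcl1*, *Bcl2* and *Bcl2l1*, *Bcl2l1* held 5.40, 5.04 and 6.07% in control and 14.5, 16.3 and 13.5% in *Rnmt* cKO total RNA. In RPFs it held 8.53, 9.01 and 7.62% in control and 19.8, 20.7 and 15.8% in *Rnmt* cKO cells. *Mcl1* remained the largest share in each library, at 78.9 to 88.0% in total RNA and 68.5 to 77.3% in RPFs.

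**Figure D2:**
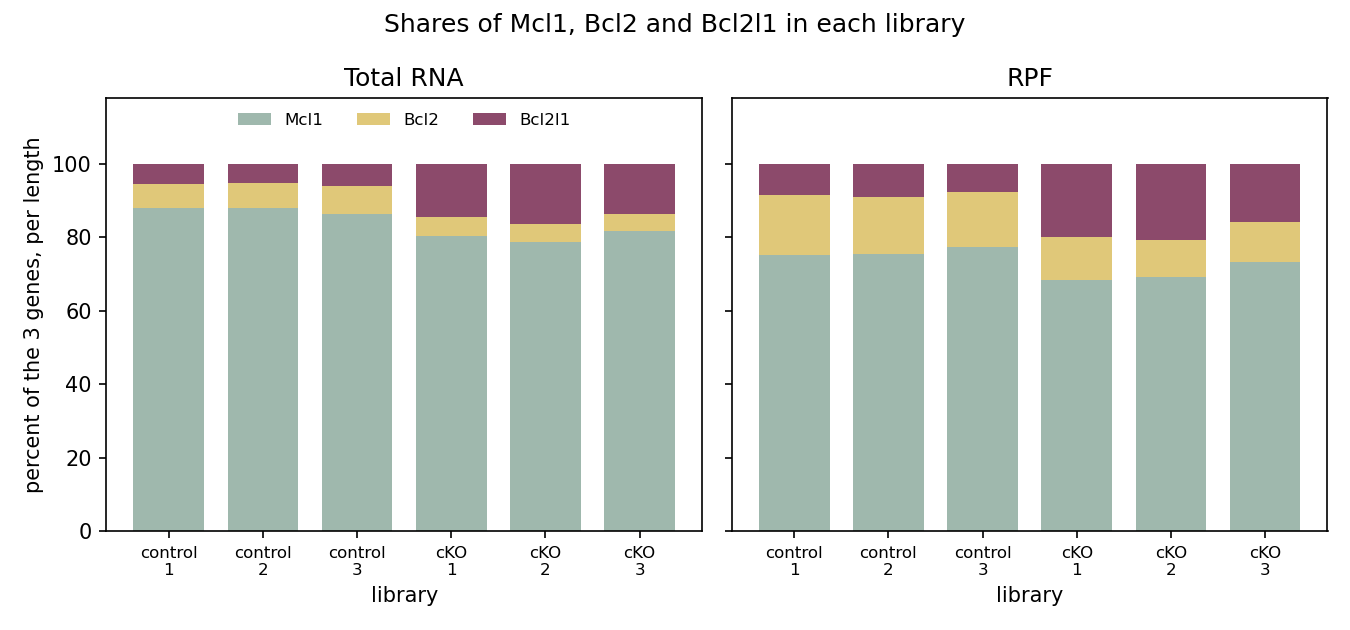
Percent of the summed level per length of Mcl1, Bcl2 and Bcl2l1 that each gene held, with a stacked bar for each library of total RNA (left, per exon length) and RPFs (right, per coding length). The Bcl2l1 share is at most 6.07% in control and at least 13.5% in Rnmt cKO total RNA, and at most 9.01% and at least 15.8% in RPFs.

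Ratios within a library do not depend on the scaling between libraries. The ratio of *Bcl2l1* to *Bcl2* per length was 0.822, 0.718 and 0.800 in control and 2.83, 3.35 and 2.89 in *Rnmt* cKO total RNA. In RPFs it was 0.525, 0.579 and 0.507 in control and 1.68, 2.06 and 1.43 in *Rnmt* cKO cells. *Bcl2l1* therefore passed *Bcl2* per length in each *Rnmt* cKO library and lay under it in each control library. The ratio of *Bcl2l1* to *Bcl2l11*, the gene of its BH3-only antagonist BIM, went from 0.936 ± 0.138 to 3.16 ± 0.167 in total RNA and from 0.332 ± 0.0548 to 1.17 ± 0.272 in RPFs (SD, n = 3). The ratio of *Bcl2* to *Bcl2l11* was 1.20 ± 0.113 in control and 1.05 ± 0.0490 in *Rnmt* cKO total RNA, and 0.616 ± 0.0601 and 0.675 ± 0.0355 in RPFs. Of 12 ratios compared, the 10 that set *Bcl2l1* or *Mcl1* over another gene had a two-sided exact permutation p of 0.1, the smallest that 3 libraries against 3 can give, and both ratios of *Bcl2* to *Bcl2l11* had an exact permutation p of 0.2.

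*Bcl2a1b* and *Bcl2a1d* are near-identical mouse copies of the gene of A1, a pro-survival protein known to be induced by NF-kB in activated lymphocytes. *Bcl2a1b* lies at chr9:89199209-89207827 on the plus strand and *Bcl2a1d* at chr9:88723285-88731914 on the minus strand. Their coding sequences of 519 bases, stop codon included, differ at 6 bases and are 98.8% identical, and *Bcl2a1a*, a further copy, differs from *Bcl2a1b* at 11. The first 75 coding bases from the GENCODE vM21 transcripts hold 6 of the 12 positions at which any of the 3 copies differ, printed in capitals, to show how little a read has to go by.
Bcl2a1b: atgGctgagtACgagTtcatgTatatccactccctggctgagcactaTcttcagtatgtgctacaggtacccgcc
Bcl2a1d: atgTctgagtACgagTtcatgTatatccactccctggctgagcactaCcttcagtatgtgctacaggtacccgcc
Bcl2a1a: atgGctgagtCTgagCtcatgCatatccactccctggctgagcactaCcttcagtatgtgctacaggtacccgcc

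Reads that aligned in several places were not counted, which limits what was seen of these copies. Of all 30-base windows of the coding sequence, about the length of an RPF, 7.14% for *Bcl2a1b* and 3.47% for *Bcl2a1d* occur in no transcript of another gene. Of *Bcl2a1b*'s coding bases, 77.7% also lie in exons of *Gm29094* on the same strand in GENCODE vM21, whereas the counts were made on vM12, in which the overlap was not checked. Reads that fall on 2 annotated genes are set aside as ambiguous in such counts. *Gm29094* itself had 0 counts over the 12 libraries. The assignment of reads between the copies is therefore uncertain, and their levels per length cannot be set against other genes.

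*Bcl2a1b* had 9.13, 6.62 and 9.49 CPM in control and 8.89, 8.77 and 6.44 CPM in *Rnmt* cKO total RNA, so the genotypes overlapped. In RPFs it had 30.6, 19.7 and 32.0 CPM in control and 53.4, 48.3 and 42.3 CPM in *Rnmt* cKO cells, with no overlap. The log2 fold change was -0.07 ± 0.18 in total RNA (edgeR adjusted p = 0.752, 95% interval -0.50 to 0.35) and 0.80 ± 0.18 in RPFs (edgeR adjusted p = 0.0108). *Bcl2a1d* had 1.80, 2.44 and 2.59 CPM in control and 5.84, 4.69 and 2.29 CPM in *Rnmt* cKO total RNA, with *Rnmt* cKO replicate 3 among the controls. In RPFs it had 5.26, 3.62 and 6.25 CPM in control and 17.6, 16.6 and 9.60 CPM in *Rnmt* cKO cells. The log2 fold change was 0.88 ± 0.34 in total RNA (edgeR adjusted p = 0.0567, and 0.00206 without *Rnmt* cKO replicate 3) and 1.54 ± 0.28 in RPFs (edgeR adjusted p = 0.00468). With the counts of the 3 copies summed, the log2 fold change was 0.19 in total RNA (edgeR adjusted p = 0.444) and 0.95 in RPFs, which passed the test. *Bcl2a1a* alone had at most 2 counts in a library.

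B cells are known to express A1, and in RPFs the summed B cell markers were above the control libraries in *Rnmt* cKO replicates 1 and 2. The cells had been purified with a kit for naive CD4 T cells, a step meant to remove B cells. *Ms4a1*, the gene of CD20, had 2.44, 0.754 and 11.0 CPM in the control RPF libraries and 41.5, 51.6 and 6.40 CPM in those of *Rnmt* cKO cells, in the order of the replicates. In RPFs 2 of the 6 markers were higher in *Rnmt* cKO cells and 4 passed the test in neither direction. In *Rnmt* cKO replicate 3, the shallowest RPF library, *Ms4a1* lay within the control range. RPF levels of *Bcl2a1b* and *Bcl2a1d* in that library were above those of every control library, from 172 and 39 counts. Against that replicate alone, the log2 fold change in RPFs was 0.61 for *Bcl2a1b* (edgeR adjusted p = 0.199) and 0.91 for *Bcl2a1d* (edgeR adjusted p = 0.181), and neither passed the test in a fit where the lone *Rnmt* cKO sample is assumed to vary like the controls. In total RNA the log2 fold change in that fit was -0.36 for *Bcl2a1b* (edgeR adjusted p = 0.243) and 0.04 for *Bcl2a1d* (edgeR adjusted p = 0.931). The part of B cells in the A1 values was not tested. In that fit, 4 of the 10 genes were higher and 1 lower in total RNA, against 19.7% higher and 20.8% lower of 11119 genes. In RPFs 2, *Bcl2l1* and *Mcl1*, were higher and 0 lower, against 4.36% higher and 4.75% lower of 10951 genes.

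**Figure D3:**
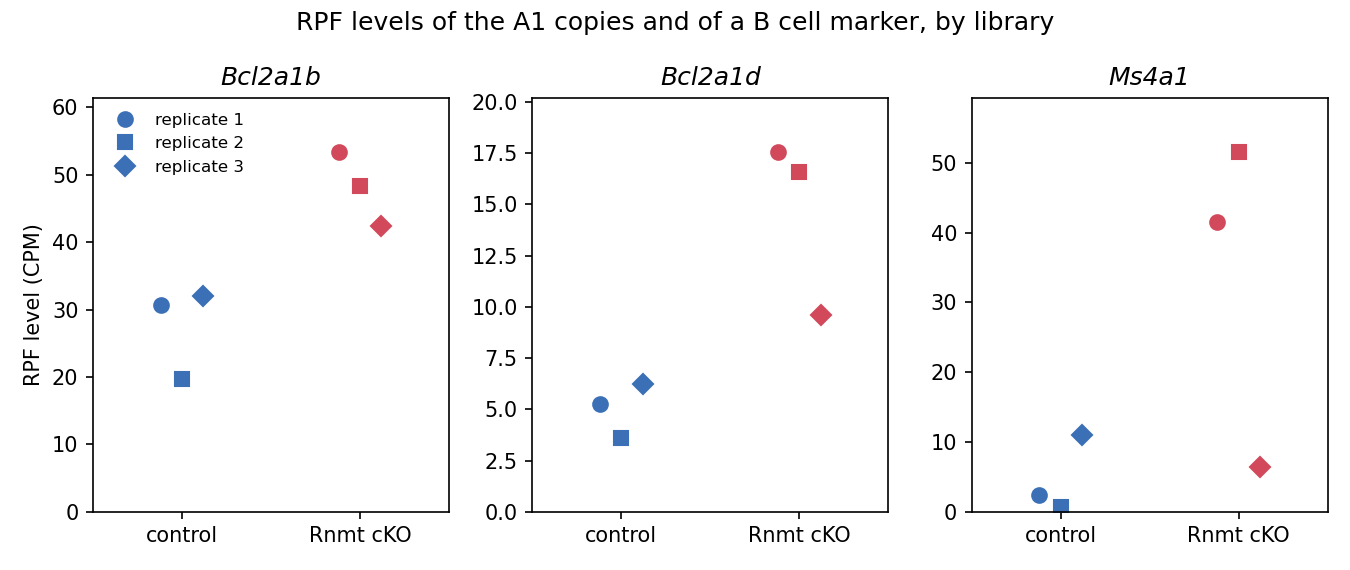
RPF levels in CPM of Bcl2a1b, Bcl2a1d and the B cell marker Ms4a1 in control (blue) and Rnmt cKO (red) libraries, with a symbol for each replicate number. Rnmt cKO replicates 1 and 2 are highest in each of the 3 panels, and Rnmt cKO replicate 3 lies above all controls for Bcl2a1b (42.3 CPM) and Bcl2a1d (9.60 CPM) but within their range for Ms4a1 (6.40 CPM).

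*Bak1*, the gene of the effector BAK (chr17:27019810-27029009, minus strand), rose in total RNA. It had 53.2, 48.1 and 51.8 CPM in control and 69.5, 58.4 and 67.3 CPM in *Rnmt* cKO cells, and rose by 0.35 ± 0.08 on the log2 scale (edgeR adjusted p = 0.00799). RPFs of *Bak1* were at 89.9, 81.4 and 92.9 CPM in control and 84.7, 93.4 and 88.6 CPM in *Rnmt* cKO cells, and the groups overlapped. The log2 fold change in RPFs was 0.01 ± 0.08 (edgeR adjusted p = 0.911), with a 95% interval of -0.16 to 0.19.

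*Bcl2l11*, the gene of BIM (chr2:128126038-128162547, plus strand), had the most reads of the BH3-only genes, although per exon length *Bid* was higher in control total RNA (17.0 against 15.2 CPM per kb). It had 98.5, 114 and 102 CPM in control and 127, 141 and 138 CPM in *Rnmt* cKO total RNA, without overlap. It rose by 0.37 ± 0.07 on the log2 scale (edgeR adjusted p = 0.00354). RPFs of *Bcl2l11* were at 91.5, 90.9 and 98.6 CPM in control and 107, 94.5 and 116 CPM in *Rnmt* cKO cells, which overlapped, and the log2 fold change of 0.17 ± 0.09 did not pass the test (edgeR adjusted p = 0.165, 95% interval -0.02 to 0.37).

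*Bid* encodes a BH3-only protein that caspase-8 cleaves and that links death receptors to mitochondria. The gene lies at chr6:120891930-120916853 on the minus strand. It had 33.9, 39.4 and 38.4 CPM in control and 23.6, 24.1 and 22.7 CPM in *Rnmt* cKO total RNA, and fell by 0.67 ± 0.08 on the log2 scale (edgeR adjusted p = 0.000340). Of the 3 genes that were lower in total RNA it was the only one to keep its call under each alternative. RPFs of *Bid* were at 36.1, 37.7 and 43.0 CPM in control and 30.2, 33.4 and 32.0 CPM in *Rnmt* cKO cells. The libraries did not overlap there either, yet the log2 fold change of -0.29 ± 0.10 did not pass the test (edgeR adjusted p = 0.0622).

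*Bad* (chr19:6941861-6951899, plus strand) encodes a BH3-only protein that phosphorylation by AKT and PIM kinases keeps inactive, and *Bik* (chr15:83526862-83544634, plus strand) one that acts at the endoplasmic reticulum. *Bad* had 13.6, 14.9 and 9.60 CPM in control and 9.44, 8.62 and 9.72 CPM in *Rnmt* cKO total RNA, and control replicate 3 lay among the *Rnmt* cKO libraries. Its log2 fold change was -0.46 ± 0.17 (edgeR adjusted p = 0.0458) in total RNA and -0.11 ± 0.18 (edgeR adjusted p = 0.654) in RPFs. *Bik* was near the filter on low counts, with 1.33, 1.96 and 1.89 CPM in control and 0.882, 0.929 and 1.17 CPM in *Rnmt* cKO total RNA, 97 and 58 counts summed over 3 libraries. It reached the filter through the control libraries, since 1 of the 3 *Rnmt* cKO libraries was above 1 CPM. This favours a lower value in *Rnmt* cKO cells, so the call of *Bik* carries no weight. Its log2 fold change was -0.77 ± 0.24 (edgeR adjusted p = 0.0248), and in RPFs the log2 fold change was -0.34 ± 0.42 (edgeR adjusted p = 0.570). The call of *Bad* was lost without control replicate 1, control replicate 2 or any *Rnmt* cKO replicate (adjusted p of 0.064 to 0.154) and that of *Bik* without control replicate 2, control replicate 3, *Rnmt* cKO replicate 1 or *Rnmt* cKO replicate 2 (0.0703 to 0.0828).

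Translation efficiency (TE) was compared as the change in RPFs beyond the change in total RNA. Of the 10 genes, 0 were higher and 0 lower in TE, against 3.24% higher and 6.57% lower of 10668 genes tested by quasi-likelihood in edgeR. That fit did not pair the total RNA and RPFs of a sample. With the replicate as a block, which pairs them, 1 of the 10 was higher (*Bcl2a1b*) and 0 lower. Over the 10668 genes, 426 were higher and 777 lower in the paired fit. At an unadjusted p under 0.05, 2 were higher (*Bid* and *Bcl2a1b*) and 1 lower (*Bak1*), and DESeq2 called 1 higher, *Bcl2a1b*. The median log2 change in TE of the 10 was 0.24, beside 0.04 over all genes tested. The 95% interval of the log2 change in TE was -0.50 to 0.20 for *Bcl2l1*, -0.12 to 0.35 for *Mcl1* and -0.09 to 0.34 for *Bcl2*.

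In the fit without pairing, the intervals of 3 genes lay on 1 side of 0, although none passed the adjusted test. *Bcl2a1b* had a log2 change in TE of 0.88 ± 0.27 (edgeR adjusted p = 0.0606, 95% interval 0.29 to 1.47), *Bid* of 0.38 ± 0.13 (edgeR adjusted p = 0.0848, 0.10 to 0.66) and *Bak1* of -0.34 ± 0.11 (edgeR adjusted p = 0.0804, -0.58 to -0.09). With the replicate as a block, that is, total RNA and RPFs of a sample taken as a pair, *Bcl2a1b* passed the test (log2 0.88, edgeR adjusted p = 0.00274). It also passed without control replicate 2 (edgeR adjusted p = 0.0417). Without *Rnmt* cKO replicates 1 and 2, the libraries with the most RPFs of B cell markers, it did not pass (log2 0.98 ± 0.40, edgeR adjusted p = 0.276). *Bak1* passed without *Rnmt* cKO replicate 2 (log2 -0.46, edgeR adjusted p = 0.0267). The ratio of RPFs to total RNA per length of *Bcl2a1b* was 5.13 ± 0.347 in control and 9.55 ± 0.844 in *Rnmt* cKO cells (SD, n = 3), without overlap. *Bcl2a1d*, *Bad* and *Bik* had wide intervals, from -0.35 to 1.69, -0.18 to 0.88 and -0.59 to 1.41, at which a 2-fold change in TE of *Bcl2a1d* or *Bik* could not be told from none.

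**Figure D4:**
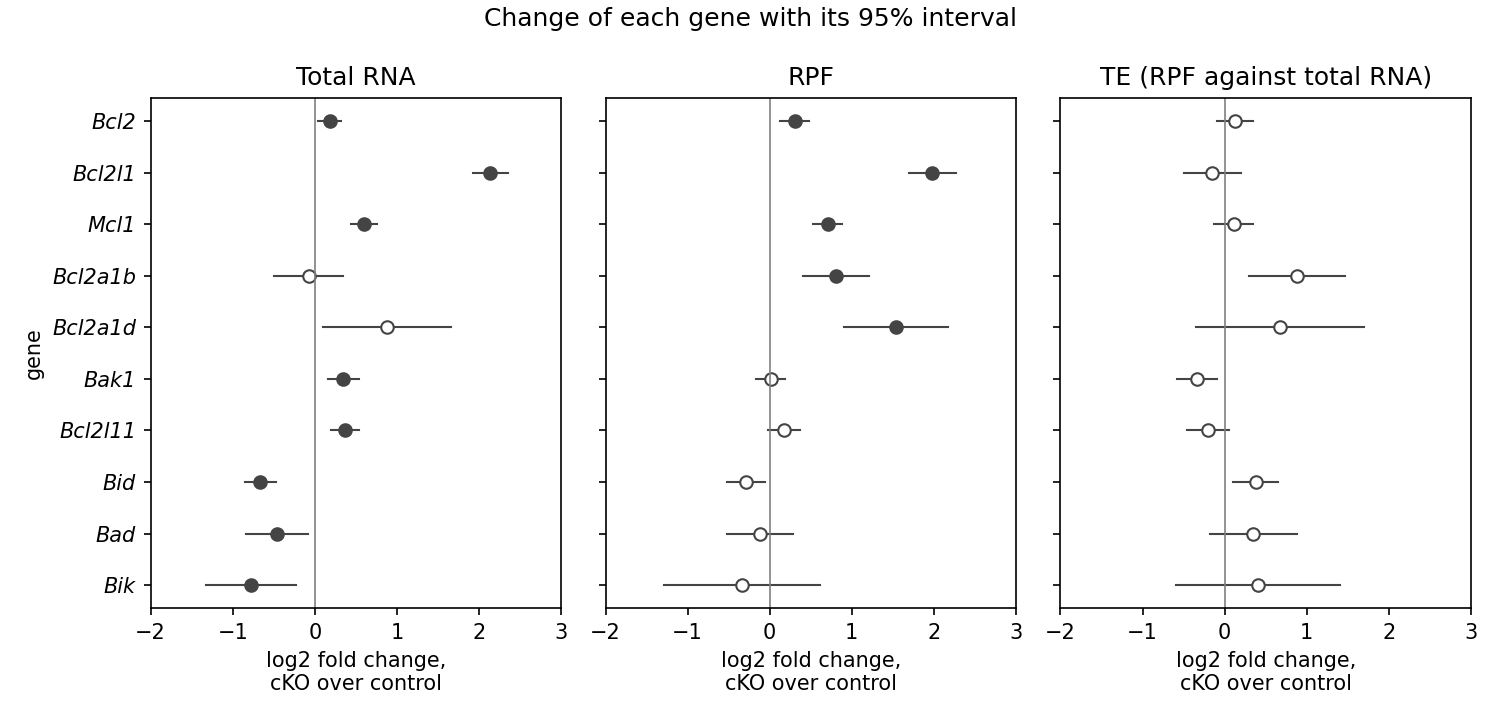
Log2 fold change of Rnmt cKO over control (points) with its 95% interval (lines) for the 10 genes in total RNA, RPFs and TE, filled where the edgeR adjusted p was under 0.05. In total RNA 8 points are filled, in RPFs the 5 pro-survival genes, and in TE, fitted without pairing of libraries, none.

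Levels per length differed widely between these genes. In control total RNA *Mcl1* had 224 CPM per kb of exon, at the 98.7th percentile of 9985 protein-coding genes, and the other 7 outside the A1 copies lay between 1.17 (*Bik*) and 21.4 (*Bak1*) CPM per kb. The ratio of RPFs per coding length to total RNA per exon length, a rough measure of ribosome load, was ranked over the same genes. *Bcl2l11* was at 9.57 ± 0.976 (SD, n = 3), the 95.4th percentile, and *Mcl1* at 1.93 ± 0.116, the 34.6th percentile. *Bcl2l1* lay between them at 3.43 ± 0.734 and did not overlap with either. In *Rnmt* cKO cells the ratio was 8.35 ± 1.06 for *Bcl2l11*, 2.09 ± 0.0411 for *Mcl1* and 3.03 ± 0.321 for *Bcl2l1*. The ratio takes the union of all annotated exons as the length, which lowers the level of genes with long or alternative untranslated exons such as *Bcl2l11*.

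Of the other Bcl2 family genes, 9 of 16 passed the filter in total RNA, with a median log2 fold change of -0.26. Of these, 4 were higher and 3 lower, against 26.3% and 28.0% of all genes tested. In RPFs 3 of 9 were higher and 2 lower, against 14.1% and 15.7%, with a median of 0.23. The rises included pro-death genes. *Pmaip1* encodes NOXA, a BH3-only protein that binds MCL1 and A1, and had 9.23, 12.5 and 12.6 CPM in control and 36.7, 47.0 and 39.2 CPM in *Rnmt* cKO total RNA. The groups were far apart, and the log2 fold change was 1.84 ± 0.14 (edgeR adjusted p = 4.27e-05) in total RNA and 1.55 ± 0.20 (edgeR adjusted p = 0.00118) in RPFs. *Bax*, the effector related to *Bak1*, had 80.6, 80.2 and 78.8 CPM in control and 129, 124 and 140 CPM in *Rnmt* cKO total RNA, and rose by 0.72 ± 0.06 in total RNA and 0.79 ± 0.07 in RPFs on the log2 scale. *Bbc3*, which encodes the BH3-only protein PUMA, rose by 0.89 ± 0.14 in total RNA and 0.70 ± 0.19 in RPFs. *Bnip3*, which encodes a mitophagy receptor with a BH3-like domain, fell from 8.28 ± 1.31 to 1.72 ± 0.212 CPM in total RNA (SD, n = 3), by 2.25 ± 0.17 on the log2 scale, and by 1.77 ± 0.35 in RPFs. *Bcl2l13*, also a mitophagy receptor, fell by 0.55 ± 0.09 and 0.34 ± 0.09. *Bmf*, a BH3-only gene, had log2 fold changes of -0.26 ± 0.30 and 0.23 ± 0.40, which did not pass the test. *Bcl2l2*, which encodes the pro-survival protein BCL-W, rose by 0.53 ± 0.13 in total RNA, from 6.34 to 9.11 CPM, and had at most 4 counts in an RPF library. Exons of *Gm20521* hold 63.4% of the coding bases of *Bcl2l2* on the same strand in GENCODE vM21.

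In the caspase cascade, which BAX and BAK set off, 4 of 14 genes were higher and 4 lower in total RNA, and 2 of 13 higher and 1 lower in RPFs. The shares over all genes tested were close to these, 26.3% higher and 28.0% lower in total RNA and 14.1% and 15.7% in RPFs. *Cycs*, the gene of cytochrome c, rose by 0.57 ± 0.13 on the log2 scale in total RNA and did not pass the filter in RPFs, and *Htra2*, whose protein counters IAPs, rose by 0.39 ± 0.09 in total RNA and 0.61 ± 0.14 in RPFs. *Casp9*, the initiator caspase of the mitochondrial route, fell by 0.92 ± 0.14 in total RNA, and *Endog* by 0.68 ± 0.09. *Apaf1*, on which caspase-9 assembles, rose by 0.58 ± 0.07 in RPFs, and *Casp8* fell there by 0.25 ± 0.08 (edgeR adjusted p = 0.0455). The call of *Casp8* is not firm, since 0 caspase cascade genes were lower in RPFs with DESeq2, edgeR's exact test or the replicate block.

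Inhibitors of apoptosis (IAPs), which block caspases, had 1 of 6 genes higher and 2 lower in total RNA and 1 of 5 higher in RPFs. Shares over all genes tested were 26.3% higher and 28.0% lower in total RNA and 14.1% and 15.7% in RPFs. *Birc2* rose by 0.51 ± 0.07 and 0.43 ± 0.10, and *Xiap* fell by 0.27 ± 0.07 in total RNA. The other called lower, *Naip2*, had 1.38, 1.85 and 1.99 CPM in control and 0.747, 0.825 and 0.475 CPM in *Rnmt* cKO total RNA. It passed the filter through the control libraries alone, which favours a lower value in *Rnmt* cKO cells, so its call carries no weight. Of 9 genes of death receptor signalling 3 were higher and 2 lower in total RNA, and 2 higher and 1 lower in RPFs. These counts, too, stand beside the shares over all genes given above. *Tnfrsf10b*, the TRAIL receptor, rose by 0.88 ± 0.11 in total RNA and 0.62 ± 0.13 in RPFs, and *Fas* by 0.43 ± 0.08 and 0.46 ± 0.09. *Tnfrsf1a* fell by 0.55 ± 0.12 and 0.44 ± 0.12, and *Tradd*, its adaptor, by 0.50 ± 0.13 in total RNA. In TE, 0 of the 8 other family genes, 5 IAP genes and 9 death receptor genes tested passed by edgeR or DESeq2, with 0 at an unadjusted p under 0.05.

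Of 20 genes known to act upstream of the family, 11 were higher and 4 lower in total RNA and 9 higher and 0 lower in RPFs. Their median log2 fold changes were 0.37 and 0.28. Over all genes tested, 26.3% were higher and 28.0% lower in total RNA, and 14.1% higher and 15.7% lower in RPFs. In RPFs 1 of the 20 was lower at an unadjusted p under 0.05, and DESeq2 and edgeR's exact test called 0 lower. *Pim1* encodes a kinase that acts on BAD, and had 60.2, 68.1 and 68.6 CPM in control and 373, 459 and 356 CPM in *Rnmt* cKO total RNA. It rose by 2.59 ± 0.11 in total RNA and 1.86 ± 0.14 in RPFs, and its TE fell by 0.73 ± 0.19 (edgeR adjusted p = 0.0278). In TE 1 of the 20 was lower and 0 higher, with 1 higher at an unadjusted p under 0.05 and 0 by DESeq2, and 2 were lower with the replicate block. *Stat5a*, which carries the IL2 signal, rose by 1.83 ± 0.16 in total RNA, and *Il2* itself by 1.83 ± 0.17 in RPFs. *Ddit3*, which encodes the stress factor CHOP, fell by 0.80 ± 0.11 and *Stat5b* by 0.38 ± 0.08 in total RNA. The plot of log2 fold changes by list shows the spread within each.

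**Figure D5:**
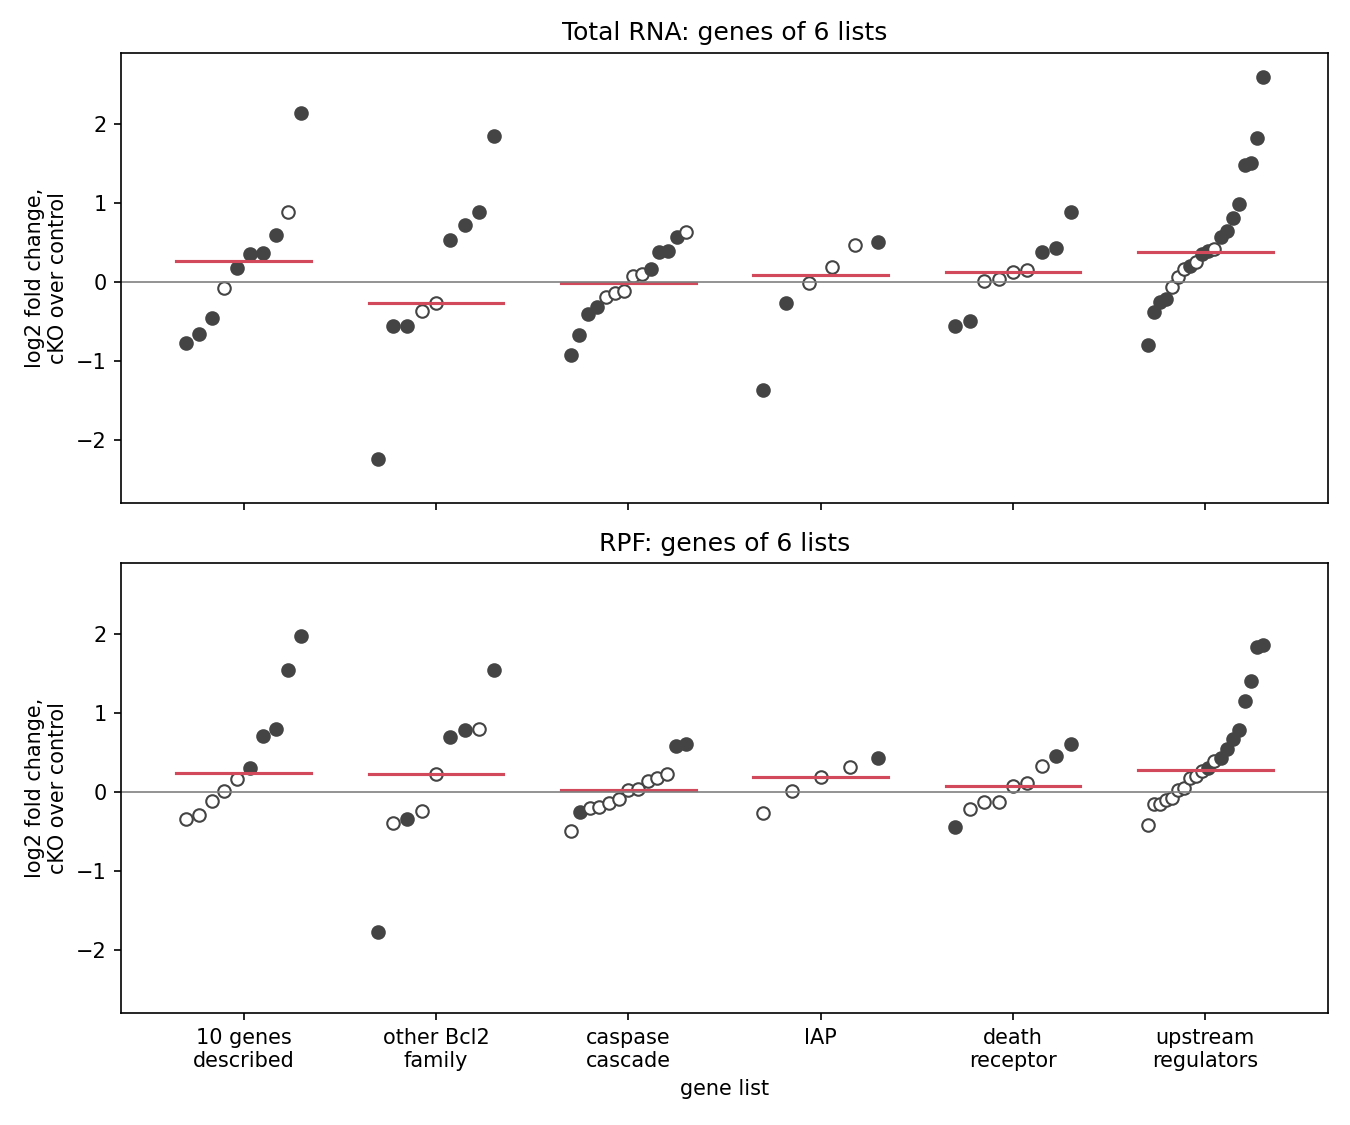
Log2 fold change of Rnmt cKO over control for each gene tested in 6 lists, in total RNA (top) and RPFs (bottom), filled where the edgeR adjusted p was under 0.05, with a red line at the list's median. Genes of every list lie on both sides of 0, and the highest points are Pim1 (2.59), Bcl2l1 (2.14) and Pmaip1 (1.84) in total RNA.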

How the data were processed

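The authors deposited counts of uniquely aligned reads per gene, made with STAR 2.5.2b on mm10 (GRCm38) and GENCODE vM12. Adapters (Cutadapt) and structural RNA (Bowtie) had been taken out beforehand. The reverse-strand column was used, since it gave the authors' deposited signal values (counts divided by an effective library size, 10126 genes) within 0.1% for 100% of genes in each library once scaled by 1 factor. The authors' fold changes, p-values and adjusted p-values were not used. Of 49585 genes, 49326 matched GENCODE vM21. Between 22.9 and 31.0% of reads aligned in several places and were not counted, as were 4 totals per file that name no gene.

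Genes that exceeded 1 CPM in 3 or more of 6 libraries were tested with TMM and the quasi-likelihood test of edgeR 4.0.16 in R 4.3.3. TE was tested as the genotype by library kind interaction in 12 libraries, without a term for the sample. This took the place of RiboDiff, which was not used here. SE was the log2 fold change divided by the root of F, 95% intervals used the t distribution with edgeR's total degrees of freedom, and median SEs were 0.10, 0.12 and 0.16 in total RNA, RPFs and TE. Scripts were tested on simulated data. Total RNA and RPF libraries of 1 number deviated together (r = 0.113 to 0.378 in 6 pairs), so the numbers pair them. Replicates of a group differed beyond counting noise (chi-square per degree of freedom 4.62 to 39.3). Python 3.11.15, pandas 2.3.3, scipy 1.17.1 and matplotlib 3.10.9 made tables and figures.

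The genes and lists were chosen with earlier results of these data known. From each other list the 2 largest rises and falls past the threshold are named, with the closest relatives of the 10 genes and the most abundant or undetected markers; *Ms4a1*, *Cd79b*, *Ncr1*, *Klrb1c*, *Klre1* and *Gm29094* were added after their values were seen, and some listed genes are not reported here. Alternatives were DESeq2 1.42.0, edgeR's exact test, library size in place of TMM, no filter, at least 10 counts in every library, counts of both strands, no mitochondrial rRNA, summed *Bcl2a1* copies, a replicate block, each replicate left out and, chosen after seeing the data, leaving out *Rnmt* cKO replicates 1 and 2.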

Additional observations from a re-analysis of the deposited data

How the results depend on the processing

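No value of the 10 genes that passed the test changed its sign under an alternative. Among the counts of the 10, the lower genes in total RNA ranged from 1 to 2 with a replicate left out, against 3. In TE 1 gene was higher with DESeq2 and 1 with the replicate block, against 0, and the higher and the lower genes each ranged from 0 to 1 with a replicate left out. Without *Rnmt* cKO replicates 1 and 2, an alternative chosen after seeing the data, 1 gene was lower in total RNA and 2 were higher in RPFs. Over all genes, TE calls were 346 higher and 701 lower, and 214 higher without the filter. Without control replicates 1, 2 and 3 and *Rnmt* cKO replicates 1 and 2, each in turn, 125, 122, 227, 136 and 173 were higher, and without control replicates 1 and 2 and *Rnmt* cKO replicate 1, each in turn, 415, 443 and 418 were lower. B cell markers called higher in RPFs numbered 2, against 0 with DESeq2 or the replicate block and 5 with the exact test or without the filter. Those called higher in total RNA numbered 2, against 1 with DESeq2, 0 with the replicate block, 4 with the exact test and 5 without the filter. Without both *Rnmt* cKO replicates 1 and 2, TE calls were 81 and 294, and RPF calls were 477 higher and 520 lower against 1612 and 1796. The cause of these shifts was not tested. Leaving out a replicate also left fewer samples, and without *Rnmt* cKO replicate 3 TE calls were 367 higher and 812 lower.

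Replicate numbers did not pair the genotypes (r of same-numbered libraries -0.476 to -0.171 in total RNA and -0.120 to 0.284 in RPFs). With the replicate block, 4 genes were higher and 2 lower in total RNA, 5 higher and 0 lower in RPFs, and 2455 higher and 2751 lower over all genes in total RNA. *Bcl2* (adjusted p = 0.0655) and *Bad* (adjusted p = 0.0982) lost their calls in total RNA. Other settings also ended calls near the threshold: *Bad* without TMM, with both strands or without mitochondrial rRNA (0.0546 to 0.0674), *Bik* with DESeq2 (0.104), and *Bcl2* with the exact test (0.0596) or no filter (0.124 in total RNA, 0.0522 in RPFs). *Bcl2a1d* gained one in total RNA in 5 settings. Counts were not separated into duplicate reads and molecules, and the depth of the RPF libraries limits *Bik*, *Bad* and *Bcl2a1d*.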
